A study of Mus musculus with 4 samples.

Results

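The 10 stress-response genes described here were followed in spatial transcriptomes of mouse liver: 5 transcriptional targets of p53 (Cdkn1a, Gdf15, Mdm2, Ccng1 and Btg2) and 5 immediate early or acute stress genes (Fos, Jun, Egr1, Atf3 and Ier3). They were taken by symbol from the 31253 features of the deposited tables, and all 10 were found, each as 1 feature. The 4 sections were recorded with 10x Visium, which captures the RNA of several neighbouring cells in each spot of a slide. All livers came from mice on a diet labelled WD: MAFL-1 and MAFL-2 carry the model name MAFL and were fed for 8 weeks, and MASH-1 and MASH-2 carry the model name MASH and were fed for 16 weeks, so that model name and weeks change together. The series holds no group without this diet. Nothing in the labels tells if both sections of a group stem from separate mice. A p for whole sections or 1 zone between the groups thus covers only the spread between sections, which may be technical. A p from a fit with section as a block covers the spread among parts of the sections, not that between sections. Strain, age and sex were not given in the sources used here. The question put to the genes was whether MASH liver differed from MAFL liver more in the p53 targets, a class linked to lasting cell injury, or in the immediate early genes, a class that also responds within minutes to handling of tissue.

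p53 is a transcription factor that is kept low by degradation and accumulates after DNA damage and other stress. It switches on genes that halt the cell cycle, repair DNA or promote cell death, and also Mdm2, which returns p53 to degradation. Immediate early genes need no new protein synthesis for their induction. Growth factors, mechanical force, oxygen lack and cell dissociation all induce them within minutes, and their transcripts are short-lived. Fos and Jun proteins pair into the transcription factor AP-1, whereas Atf3 belongs to the same leucine zipper superfamily and follows many kinds of stress, and some of its induction in other systems runs through p53. The classes are therefore not strictly separate, and Btg2 is both a p53 target and an early response gene.

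The letters directly upstream of 4 of these genes are shown as part of the sequence that can control them. They are the 250 bases before the annotated start in RefSeq, build GRCm38.p6, which is the assembly that mm10 names. Control sites further upstream or within a gene lie outside this stretch and were not searched. RefSeq promoters were matched for 9 of the 10 genes, and none for Egr1, which was therefore not searched. The first sequence is the upstream promoter of Cdkn1a at chr17:29090729-29090978 on the plus strand. Its capitals mark a match to a spaced p53 pattern at 73 to 42 bases before the start. The match joins the half-elements GGACTAGCTT and GAACATGTCT and need not be the site that p53 uses. The lower-case letters tgacatgttc directly after it depart from the half-element pattern at their first letter and were therefore not marked.
Cdkn1a: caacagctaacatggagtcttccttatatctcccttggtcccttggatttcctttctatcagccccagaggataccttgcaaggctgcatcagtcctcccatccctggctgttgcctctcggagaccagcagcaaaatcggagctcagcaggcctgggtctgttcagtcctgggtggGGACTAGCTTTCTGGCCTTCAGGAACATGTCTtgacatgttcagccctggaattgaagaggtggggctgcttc
A match to this spaced pattern was found, on either strand, in 0.0639% of 32851 promoters of the same length, and in no other of the 11 promoters matched to the genes. The Fos promoter lies at chr12:85473640-85473889 on the plus strand, and its capitals mark TGACG, the core that CREB and ATF factors read, at 129 and 66 bases before the start.
Fos: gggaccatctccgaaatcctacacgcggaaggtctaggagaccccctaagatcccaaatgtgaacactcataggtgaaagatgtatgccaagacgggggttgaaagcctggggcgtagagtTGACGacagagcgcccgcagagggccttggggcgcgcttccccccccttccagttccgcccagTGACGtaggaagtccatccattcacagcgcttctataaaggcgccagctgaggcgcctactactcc
The Jun promoter lies at chr4:95052223-95052472 on the minus strand, and its capitals mark the AP-1-like octamer TGACATCA at 45 to 38 bases before the start.
Jun: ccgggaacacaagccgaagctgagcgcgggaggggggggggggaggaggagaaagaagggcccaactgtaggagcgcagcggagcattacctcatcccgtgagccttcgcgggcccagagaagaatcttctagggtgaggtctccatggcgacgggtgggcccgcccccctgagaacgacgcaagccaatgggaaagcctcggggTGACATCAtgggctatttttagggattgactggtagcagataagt
The Atf3 promoter lies at chr1:191183334-191183583 on the minus strand, and its capitals mark TGACG read on the opposite strand, 7 to 3 bases before the start.
Atf3: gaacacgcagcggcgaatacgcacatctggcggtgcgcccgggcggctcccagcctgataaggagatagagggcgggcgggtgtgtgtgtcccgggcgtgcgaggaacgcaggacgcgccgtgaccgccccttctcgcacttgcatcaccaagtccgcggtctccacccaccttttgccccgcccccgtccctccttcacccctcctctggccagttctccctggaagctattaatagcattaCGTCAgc
TGACG was found on either strand in 17.8% of all promoters and TGACATCA in 2.93%. TGACATCA holds no TGACG, so these searches do not overlap, whereas TGACGTCA contains it. The full palindrome TGACGTCA, present in 1.55% of promoters, was found among the 9 genes searched only upstream of Btg2, at 166 to 159 bases before its start. A match describes letters only and no binding was measured.

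The sections held 1862 to 2467 spots with at least 500 UMIs (unique molecular identifiers, each standing for 1 captured transcript) and 32249289 to 63808230 UMIs in all. The median spot held 15430.5 UMIs in MAFL-1, the shallowest section, and 25291 in MASH-1, the deepest. Mitochondrial transcripts took 3.84 to 4.99% of UMIs. The tissue label was borne out by 6 hepatocyte genes, whose summed level was between 88419 and 92000 CPM (UMIs scaled to the same total in every section) in all sections. The 10 genes were measured by few molecules, 2509 in MAFL-1, 6140 in MAFL-2, 11904 in MASH-1 and 8782 in MASH-2. Sections of a pair shared 1182 to 1725 spot barcodes, which mark slide positions and not cells. MAFL-1 stood apart from the other 3 sections in Gdf15, Fos, Jun and Egr1, as the values below show, but not in Cdkn1a, Mdm2, Ccng1 or Ier3. The differences between the groups are given below also without single sections.

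Cdkn1a encodes p21, the inhibitor of cyclin-dependent kinases through which p53 halts the cell cycle. Its level was 2.20 CPM in MAFL-1, 1.08 in MAFL-2, 3.07 in MASH-1 and 12.9 in MASH-2, from 71, 41, 196 and 575 UMIs. Both MASH sections were above both MAFL sections, but the MASH sections themselves lay 4.20-fold apart and MASH-1 was close to MAFL-1. Only 0.363% of 11572 genes with a mean of at least 1 CPM differed as much between the MASH sections. Over the groups the level was 1.64 ± 0.796 CPM in MAFL and 7.98 ± 6.95 in MASH (mean ± SD, n = 2 sections each), with a log2 fold change of 2.16 (SE 0.82, 95% interval -0.13 to 4.45) and an adjusted p of 0.276 in edgeR. The estimate rested on MASH-2: without it the log2 fold change was 0.88 (adjusted p = 0.446), and without MASH-1 it was 2.81 (adjusted p = 0.0273). The 5 genes most like Cdkn1a over the 12 section zones (the pericentral, middle and periportal spots of each section), of 3990 genes with a mean of at least 20 CPM, were Sparc, Fxyd5, Atp6v1a, Dstn and Bgn, with Pearson r between 0.977 and 0.984. With 3 zones sharing each of 4 sections, these correlations show mainly which section was high. Sparc and Bgn are matrix proteins of fibroblasts and stellate cells, and the summed level of 7 stellate and fibroblast markers was 199 CPM in MAFL-1, 187 in MAFL-2, 316 in MASH-1 and 517 in MASH-2, the highest, as for Cdkn1a. Its part in the Cdkn1a values was not tested. In bulk values of a section, more cells of a type and more RNA per cell cannot be told apart.

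Gdf15, a secreted stress hormone of the TGF-beta family that is under the control of p53 and of the integrated stress response, differed more between the MAFL sections than between the groups. It stood at 12.5 CPM in MAFL-1, 47.1 in MAFL-2, 55.1 in MASH-1 and 50.1 in MASH-2. MAFL-2 lay close to the MASH sections and 3.76-fold above MAFL-1, a gap that 0.294% of genes matched or exceeded. The group means were 29.8 ± 24.4 and 52.6 ± 3.53 CPM (SD, n = 2), and the log2 fold change was 0.70 (SE 0.72, adjusted p = 0.647 in edgeR). Without MAFL-1, the low section, it was 0.026 (adjusted p = 0.980), and without MAFL-2 it was 1.99 (adjusted p = 0.0142).

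Mdm2, the ubiquitin ligase that marks p53 for degradation, is transcribed in part from a promoter that p53 controls. Its level was nearly the same in all sections, at 15.9 CPM in MAFL-1, 15.1 in MAFL-2, 16.8 in MASH-1 and 14.8 in MASH-2, and the groups overlapped. The log2 fold change of -0.07 had a 95% interval from -0.44 to 0.31, that is from 0.736-fold to 1.24-fold. Ccng1, the p53-induced cyclin G1, varied little within the groups. It stood at 17.2 and 14.9 CPM in MAFL and at 25.7 and 27.2 CPM in MASH, without overlap, a log2 fold change of 0.62 (SE 0.14, interval 0.29 to 0.95) whose adjusted p was 0.106 in edgeR. Btg2, an antiproliferative protein that recruits the deadenylation machinery, stood at 8.71 CPM in MAFL-1 and 17.3 in MAFL-2, with 14.5 in MASH-1 and 14.2 in MASH-2 between them. Its groups overlapped and its log2 fold change was 0.03 (SE 0.34, adjusted p = 0.971), from -0.41 without MAFL-1 to 0.64 without MAFL-2.

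Fos, the inducible partner of Jun in AP-1, stood at 0.651 CPM in MAFL-1, 3.15 in MAFL-2, 5.52 in MASH-1 and 5.32 in MASH-2. These levels rest on 21, 120, 352 and 237 UMIs. The MASH sections were alike and above both MAFL sections, which themselves lay 4.83-fold apart. The log2 fold change was 1.38 (SE 0.71, interval -0.52 to 3.27, adjusted p = 0.369 in edgeR), with 0.65 without MAFL-1 (adjusted p = 0.565) and 2.97 without MAFL-2 (adjusted p = 0.0195). Its nearest genes over the 12 section zones were Ppif, Hoga1, Vdac1, Tcea3 and Sptssa (r between 0.945 and 0.961), of which Vdac1 encodes a mitochondrial channel protein.

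Jun stood at 16.1 CPM in MAFL-1, 43.9 in MAFL-2, 45.9 in MASH-1 and 58.0 in MASH-2. Again MAFL-2 was near the MASH sections, and MAFL-1 was apart from all 3. The log2 fold change was 0.67 (SE 0.54, adjusted p = 0.554), with 0.097 without MAFL-1 (adjusted p = 0.910) and 1.60 without MAFL-2 (adjusted p = 0.0268). Over the 12 section zones Jun and Gdf15 had the highest correlation of any pair of the 10 genes (r = 0.96), although one is an immediate early gene and the other a p53 target.

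Egr1, a zinc finger factor induced by growth factor and mechanical signals, had the largest gap within MAFL. Its level was 2.39 CPM in MAFL-1, 16.5 in MAFL-2, 15.9 in MASH-1 and 8.16 in MASH-2. MAFL-2 was the highest of the 4 sections and lay 6.91-fold above MAFL-1, a gap that 0.0518% of genes matched or exceeded. The groups overlapped, with a log2 fold change of 0.24 and an interval from -2.80 to 3.28 (adjusted p = 0.919 in edgeR). The estimate was -0.57 without MAFL-1, -0.42 without MASH-1 and 2.28 without MAFL-2 (adjusted p = 0.275), so its direction changed with the sections used.

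Atf3, a stress-induced repressor, had the lowest adjusted p of the 10 genes between the groups. It stood at 0.403 CPM in MAFL-1, 0.787 in MAFL-2, 2.34 in MASH-1 and 3.63 in MASH-2, from 13, 30, 149 and 162 UMIs. Both MASH sections were clearly above both MAFL sections. The log2 fold change was 2.18 (SE 0.41, interval 1.23 to 3.13, 4.54-fold), with an adjusted p of 0.0765 in edgeR, just above the threshold of 0.05. It ranged from 1.77 without MAFL-1 (adjusted p = 0.315) to 2.78 without MAFL-2 (adjusted p = 0.0599), and passed without MASH-1 (2.40, adjusted p = 0.0401). Over 14 alternatives it passed in 4. In spots poor in macrophage transcripts alone it was 1.31 (adjusted p = 0.222), and in rich spots alone 3.02 (adjusted p = 0.0324). Both classes were ranked within each section, and both held more macrophage transcripts in MASH than in MAFL. Ier3, a small protein that modulates cell survival and is induced by NF-kappa-B, p53 and growth factors, stood at 1.74 CPM in MAFL-1, 1.21 in MAFL-2, 1.77 in MASH-1 and 2.69 in MASH-2. MASH-1 was barely above MAFL-1, and the log2 fold change was 0.49 (SE 0.33, adjusted p = 0.442).

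In all, 7 of the 10 genes had no overlap between groups and their MASH sections on top, a pattern that 34.1% of the 13593 tested genes showed. None of the 10 passed an adjusted p of 0.05 between the groups in edgeR, where 0.456% of tested genes did. At an unadjusted p below 0.05 the count was 2 of 10 (Ccng1 and Atf3) against 19.2% of all genes, and DESeq2 called the same 2 genes at an adjusted p of 0.05 (4.61% of all). By class the median log2 fold change was 0.62 for the 5 p53 targets and 0.67 for the 5 immediate early genes, beside 0.01 over all tested genes.

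**Figure D1:**
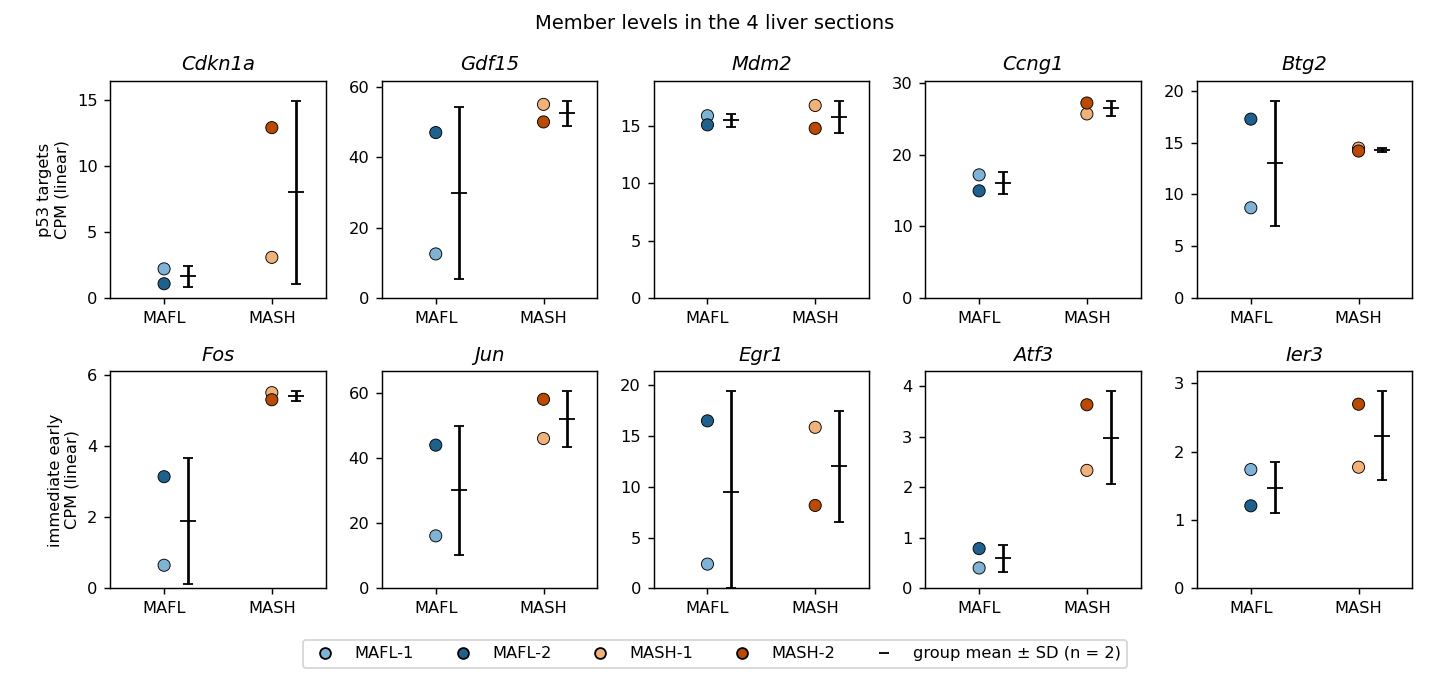
Level of each gene (CPM, linear axis from 0) in the 4 sections, by group, with the group mean ± SD of 2 sections beside the points. Gdf15, Fos, Jun and Egr1 were low in MAFL-1 alone, Cdkn1a was high in MASH-2 alone, and Atf3 and Ccng1 separated the groups with a smaller spread.

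The summed level of the 5 p53 targets was 56.5 CPM in MAFL-1, 95.5 in MAFL-2, 115 in MASH-1 and 119 in MASH-2. The summed level of the 5 immediate early genes was 21.3, 65.5, 71.4 and 77.8 CPM in the same order. Both sums were lowest in MAFL-1 and close together in the other 3 sections. The ratio of the p53 sum to the immediate early sum was 2.66 in MAFL-1, 1.46 in MAFL-2, 1.61 in MASH-1 and 1.53 in MASH-2, so the groups overlapped in the balance of the classes. Jun gave 64.3 to 75.7% of the immediate early UMIs, and Gdf15 gave 22.2% of the p53 UMIs in MAFL-1 and 42.0 to 49.3% in the other sections, so 1 gene weighed heavily in each sum.

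Wider lists of the same pathways did not pass between the groups. Of 27 further p53 targets 26 were tested, with none past the threshold and a median log2 fold change of 0.09. The 2 with the smallest p were Trp53inp1, which promotes p53 activity and autophagy (16.8 and 19.3 CPM in MAFL against 22.4 and 39.3 in MASH, adjusted p = 0.227 for a log2 fold change of 0.65), and Tigar, a regulator of sugar metabolism (log2 fold change -0.48, adjusted p = 0.243). Of 32 further immediate early genes 30 were tested, again with none past the threshold and a median of 0.27. Among them Klf6, a zinc finger factor of injury and fibrosis, stood at 5.40 and 5.30 CPM in MAFL and 8.60 and 14.3 in MASH (log2 fold change 0.98, adjusted p = 0.109). Cebpd, an acute phase transcription factor, stood at 11.6 and 11.7 against 21.9 and 18.3 CPM (0.70, adjusted p = 0.119). The CREB-responsive kinase Sik1 (-0.86, adjusted p = 0.145) and the Axin-induced nuclear factor Csrnp1 (-0.64, adjusted p = 0.154) had estimates in the other direction.

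Other stress lists had their highest summed level in MAFL-1, with MASH-2 close below it for heat shock. The summed level of 12 heat shock genes was 2923 CPM in MAFL-1 against 2172 in MAFL-2 and 2438 and 2684 in the MASH sections, and that of 18 genes of the integrated stress response was 390 in MAFL-1 against 284, 288 and 287. The section lowest in the summed level of the 5 p53 targets and of the 5 immediate early genes was therefore the highest in both of these lists. The 27 further p53 targets summed to 856 CPM in MAFL-1, 813 in MAFL-2, 1017 in MASH-1 and 934 in MASH-2, so there MAFL-2 was the lowest. None of the 12 heat shock and none of the 16 tested stress response genes passed between the groups. Macrophage markers, 14 genes, summed to 669 and 840 CPM in MAFL and 1510 and 1667 CPM in MASH, where 3 of 14 passed as higher, and their part in the group differences was not tested. In spots poor in these markers Atf3 had 0.559 and 0.840 CPM in MAFL against 1.36 and 2.41 in MASH. Of 18 cell cycle genes none passed, although 16 had estimates above 0. Cyclin D1, encoded by Ccnd1, had 19.1 and 12.3 CPM in MAFL against 31.2 and 55.7 in MASH (adjusted p = 0.120 in edgeR for a log2 fold change of 1.36).

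**Figure D2:**
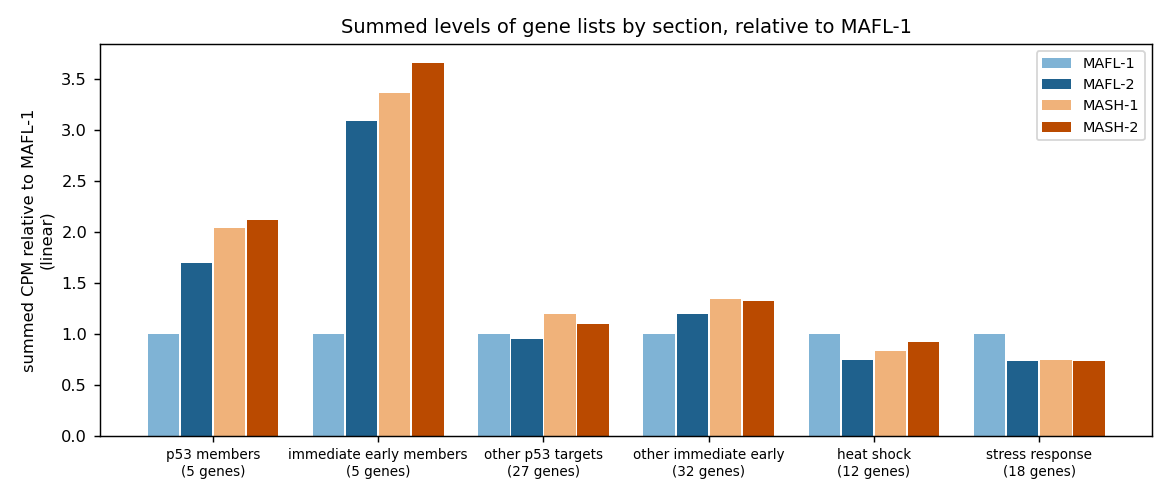
Summed CPM of each gene list in the 4 sections, relative to MAFL-1 (linear axis from 0). The 5 immediate early genes were 3.08 to 3.66 times and the 5 p53 targets 1.69 to 2.11 times the MAFL-1 level in the other 3 sections, whereas heat shock and stress response sums were 0.728 to 0.918 times that level.

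The lobule axis was read from each spot's log2 ratio of Cyp2f2, a periportal hepatocyte enzyme, to Cyp2e1, a pericentral one, and each section was ranked and divided into 3 zones of equal spot number. Between the periportal and the pericentral zone, 2 of the 5 immediate early genes rose periportally (Fos and Egr1) and none of the 5 p53 targets passed, while 23.0% of 12551 genes passed in either direction and 11.3% as periportally higher. At an unadjusted p below 0.05 these were still none of the p53 targets and 3 immediate early genes, with Atf3 added, against 33.0% of all genes. DESeq2 called Fos and Egr1 as well, and no p53 target. Fos stood in the pericentral and periportal zones at 0.728 and 0.642 CPM in MAFL-1, 2.23 and 3.84 in MAFL-2, 2.51 and 8.97 in MASH-1 and 4.44 and 5.77 in MASH-2. It was periportally higher in 3 of 4 sections, by 3.58-fold in MASH-1, and level in MAFL-1, where the zones held 8 and 7 UMIs. The fitted log2 fold change was 1.09 (SE 0.20, adjusted p = 0.000387 in edgeR with section as a block), and without MASH-1 it was 0.56 (adjusted p = 0.0460).

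Egr1 stood at 2.28 and 2.66 CPM in MAFL-1, 11.7 and 20.5 in MAFL-2, 6.88 and 26.8 in MASH-1 and 6.28 and 8.84 in MASH-2, in the pericentral and the periportal zone. It was periportally higher in 4 of 4 sections, a pattern shown by 13.4% of tested genes, and again most so in MASH-1 (3.89-fold). The log2 fold change was 1.199 (SE 0.30, adjusted p = 0.0305 in edgeR). The call was lost without MAFL-1 (adjusted p = 0.0873), MAFL-2 (0.0904) or MASH-2 (0.0684), and without MASH-1 the fold change was 0.69 (adjusted p = 3.9e-05). In the periportal zone the markers of bile duct cells and smooth muscle were higher too, all 4 and all 3 of them. In spots without a UMI of any of these 7 markers, Fos had a log2 fold change of 1.04 (adjusted p = 0.000549) and Egr1 of 1.12 (adjusted p = 0.0361). Periportal spots were deeper than pericentral ones in the MASH sections, with a median of 33004.5 against 22896 UMIs in MASH-1 and 34042 against 15755 in MASH-2. They were also deeper in MAFL-2 (22462 against 18560), but not in MAFL-1 (15505 against 15631). With spots ranked within bins of total UMIs the values were 0.90 for Fos and 1.13 for Egr1. All 14 macrophage markers had estimates above 0 periportally and 6 of them passed, and their part in these values was not tested.

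The other 3 immediate early genes did not pass along the axis. Jun had a log2 fold change of -0.27 (interval -0.63 to 0.08, adjusted p = 0.261). Its ratio of periportal to pericentral CPM was 1.06 in MAFL-1, 0.980 in MAFL-2, 0.960 in MASH-1 and 0.510 in MASH-2, where it stood at 83.6 CPM pericentrally, 62.8 in the middle and 42.6 periportally. Gdf15 showed the same arrangement in MASH-2, with 67.7, 54.6 and 38.9 CPM in that order, and the opposite slope in MASH-1 (49.4, 54.1 and 60.0 CPM). Atf3 had a log2 fold change of 0.59 (SE 0.23, adjusted p = 0.0639), with 0.0910 CPM from a single UMI pericentrally and 0.642 CPM periportally in MAFL-1, and the reverse order only in MASH-2 (3.97 and 3.25 CPM). It passed without MASH-2 (1.195, adjusted p = 0.00325). Ier3 had 0.25 (SE 0.24, adjusted p = 0.526).

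None of the p53 targets passed along the axis. Cdkn1a had a log2 fold change of -0.0046 (interval -0.28 to 0.27), Mdm2 of -0.11 (-0.25 to 0.04), Ccng1 of -0.05 (-0.19 to 0.10) and Gdf15 of -0.14 (-0.52 to 0.24). Btg2, the target that is also an early response gene, had 0.34 (-0.08 to 0.76, adjusted p = 0.242) and passed without MASH-2 (0.55, adjusted p = 0.00976). The excess of Cdkn1a in MASH-2 was thus present across the lobule, at 14.2 CPM pericentrally, 13.9 in the middle and 11.7 periportally, whereas no zone of another section exceeded 3.48 CPM.

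**Figure D3:**
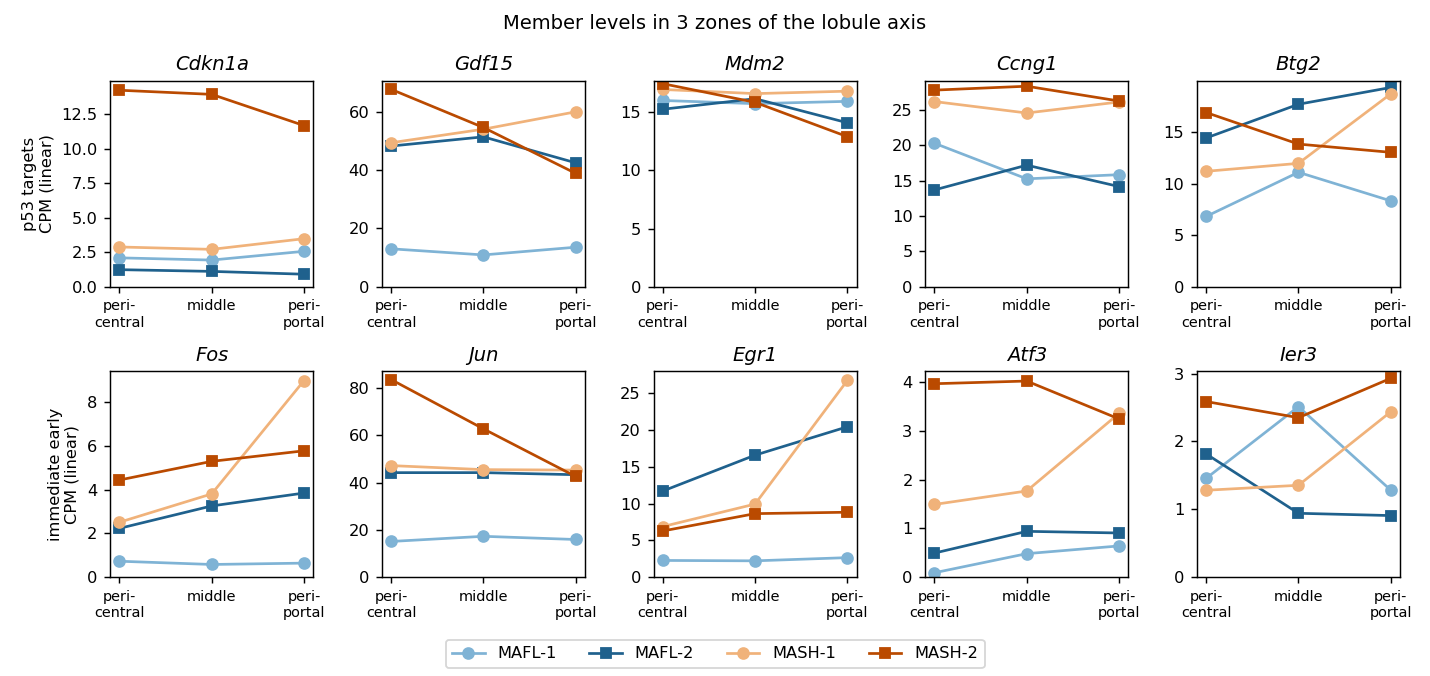
Level of each gene (CPM, linear axis from 0) in the pericentral, middle and periportal zone of each section. Fos and Egr1 climbed towards the periportal zone most steeply in MASH-1, Jun and Gdf15 declined in that direction in MASH-2, and Mdm2 stayed between 12.9 and 17.5 CPM throughout.

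Of 28 tested genes of the wider immediate early list, 7 were higher periportally and 4 lower, where 11.3% and 11.7% of all tested genes were. The rises were led by Ier2 (log2 fold change 0.71, adjusted p = 1.11e-12) and included Junb, another AP-1 subunit (0.50, adjusted p = 2.88e-06), the nuclear receptor Nr4a1 (0.62), Ier5 (0.49), Gadd45g (0.42), Klf10 (0.31) and Dusp1, a phosphatase that switches off MAP kinases (0.15). The decreases were those of Cebpb (-0.33, adjusted p = 5.57e-07) and Cebpd (-0.43), which are acute phase transcription factors, and of Gadd45b (-0.47) and Ccn1 (-0.61), a secreted matrix protein induced through YAP. The list median was 0.04, beside 0.01 over all tested genes. Of 22 further p53 targets tested, only Fas, the death receptor, passed, and it was lower periportally (-0.25, adjusted p = 0.0057). Of 12 heat shock genes 4 were lower periportally, Hspb1 (-0.86), Hspa1b (-0.82), Hspa1a (-0.80) and Dnaja1 (-0.26), and Hspe1, the mitochondrial co-chaperonin, was higher (0.18). Hspa1a and Hspa1b are near-identical copies whose reads the counting could split between them. Of 13 stress response genes Ddit4 (1.08) and Fgf21 (0.57) were higher periportally, and Trib3 (-0.49) and Sesn2 (-0.32) lower. Of 16 cell cycle genes Ccnd1 (0.75) and Birc5 (0.65) were higher. Those of these genes outside the 4 smallest p of a list were named after their values were seen.

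Zones were ranked within each section and did not hold the same Cyp2f2 to Cyp2e1 ratio in all sections. The median log2 ratio of periportal spots was 0.632 in MAFL-1, -0.505 in MAFL-2, -0.737 in MASH-1 and 0.103 in MASH-2. The part of this in group differences by zone was not tested. Within the periportal zone MASH was set against MAFL in the same way. Atf3 had 0.642 CPM in MAFL-1, 0.908 in MAFL-2, 3.36 in MASH-1 and 3.25 in MASH-2, without overlap and with little spread within MASH. It rose by a log2 fold change of 1.99 (SE 0.36, 3.96-fold), the only 1 of the 10 genes past the threshold (adjusted p = 0.0454 in edgeR), where 1.27% of 12478 genes passed and 0.906% as higher in MASH. The call was lost without MAFL-1 (1.75, adjusted p = 0.123), without MASH-2 (2.02, adjusted p = 0.0682) and once same-numbered sections formed a block (1.995, adjusted p = 0.0927). Periportal macrophage markers summed to 670 and 869 CPM in MAFL and to 1688 and 1555 CPM in MASH, with 6 of 14 passing, and their part in this difference was not tested. Ccng1 (0.73, adjusted p = 0.0768) and Ier3 (1.23, adjusted p = 0.137; 1.28 and 0.908 CPM in MAFL, 2.44 and 2.93 CPM in MASH) did not pass. Of the wider lists Ccnd1 (1.59, adjusted p = 0.0266) and Nupr1, a stress-induced chromatin protein (1.57, adjusted p = 0.0370), rose in this zone.

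The other zones were not matched between sections either. The median log2 ratio of middle spots was -0.922 in MAFL-1, -2.42 in MAFL-2, -3.62 in MASH-1 and -2.49 in MASH-2. For pericentral spots it was -3.18, -3.82, -4.87 and -3.97 in the same order. In the middle zone 0.445% of 11908 genes passed in edgeR, and in the pericentral zone 0.602% of 11800. None of the 10 genes did in either zone. At an unadjusted p below 0.05 Ccng1 and Atf3 did in either zone, among 16.2% of all genes in the middle and 17.6% pericentrally. DESeq2 called Cdkn1a in both zones and Atf3 pericentrally, among 2.07% and 2.35% of all genes. The Atf3 estimates were 1.85 (adjusted p = 0.174) and 2.93 (adjusted p = 0.110), the latter from 1 and 6 UMIs in MAFL and 28 and 43 in MASH. An interaction term tested if the periportal to pericentral change was the same in both groups, which 0.526% of 12551 genes passed and none of the 10 (8.69% and 1 of 10 at an unadjusted p below 0.05, 0.359% and none in DESeq2). Ier3 came nearest (log2 difference 1.21, SE 0.46, unadjusted p = 0.0129, adjusted p = 0.394). Its periportal to pericentral ratio was 0.881 and 0.50 in the MAFL sections and 1.90 and 1.13 in the MASH sections, from 13 to 64 UMIs a zone. The larger Fos and Egr1 slopes in MASH-1 gave estimates of 0.64 (adjusted p = 0.775) and 0.79 (adjusted p = 0.828), so a difference between the groups was not shown for either. Without MASH-2 the Egr1 estimate was 1.21 and passed (adjusted p = 0.000101). Without MASH-1 Jun (-0.83, adjusted p = 1.64e-07) and Gdf15 (-0.52, adjusted p = 0.00564) passed, so the interaction differed by which MASH section was kept.

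Spots rich in macrophage transcripts, the top 10% of each section by the share of 14 macrophage genes, were then set against the poorest 50%. Spots were ranked within bins of total UMIs. Atf3 was the only 1 of the 10 genes to pass, among 9.11% of 12458 genes that did and 6.08% that were higher. Its level in poor and rich spots was 0.559 and 0.314 CPM in MAFL-1, 0.840 and 1.31 in MAFL-2, 1.36 and 5.97 in MASH-1 and 2.41 and 10.0 in MASH-2. It was thus 4.39-fold and 4.15-fold higher in the rich spots of the MASH sections, from 38 and 44 UMIs in the rich spots. In MAFL the rich spots held only 1 and 5 UMIs. The fitted log2 fold change was 1.68 (SE 0.26, adjusted p = 3.2e-05 in edgeR), and it passed in all 9 alternatives run, with values from 1.40 to 1.82. The interaction of this enrichment with the group was passed by 1.12% of genes and none of the 10 (11.7% and 2 of 10 at an unadjusted p below 0.05, 0.128% and none in DESeq2). Atf3 had 1.73 (SE 0.66, unadjusted p = 0.0111, adjusted p = 0.227).

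The rich spots also held more stellate and fibroblast transcripts, 252 against 195 CPM in MAFL-1, 209 against 185 in MAFL-2, 431 against 285 in MASH-1 and 846 against 427 in MASH-2, and 5 of the 7 markers passed. Neutrophil markers summed to 12.6 against 6.70 CPM in MAFL-1, 56.7 against 11.8 in MAFL-2, 9.10 against 7.96 in MASH-1 and 56.7 against 12.1 in MASH-2, and 1 of 4 tested passed. Lymphocyte markers summed to 8.48 against 6.58, 11.5 against 7.62, 13.3 against 8.88 and 23.4 against 12.1 CPM in the same order, and 1 of 5 tested passed. The part of these cell types in the Atf3 values was not tested. Fos (-0.05, interval -0.44 to 0.33), Jun (-0.04, -0.18 to 0.10) and Egr1 (0.18, -0.06 to 0.42) did not pass and had intervals below that of Atf3, and the p53 targets lay between -0.09 for Gdf15 and 0.21 for Cdkn1a. Cdkn1a stood at 11.4 CPM in poor and 18.2 in rich spots of MASH-2, at 3.10 and 3.45 in MASH-1, at 2.23 and 1.88 in MAFL-1, and at 1.16 CPM and 0 UMIs in MAFL-2 (interaction 1.37, adjusted p = 0.343). Of the wider lists, 3 further immediate early genes were higher in rich spots (Egr2 2.38, Klf2 0.37 and Rhob 0.27) and 3 further p53 targets (Pmaip1, the proapoptotic protein Noxa, 1.48; Apaf1, the apoptosome scaffold, 0.68; Sesn1 0.55). The cell cycle genes Mki67 (1.38), Top2a (1.18) and Mcm3 (0.89) were higher as well. These 9 genes were named because they passed.

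**Figure D4:**
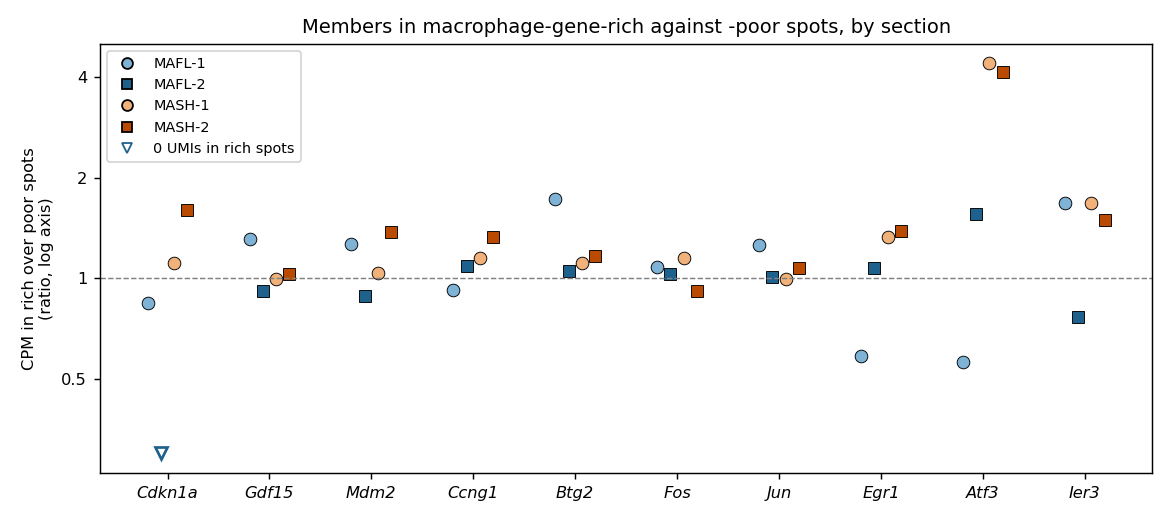
Ratio of CPM in macrophage-gene-rich to macrophage-gene-poor spots for each gene and section (log axis), with an open triangle where the rich spots held 0 UMIs. Atf3 reached 4.39 and 4.15 in the MASH sections, above every other ratio shown.

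**Figure D5:**
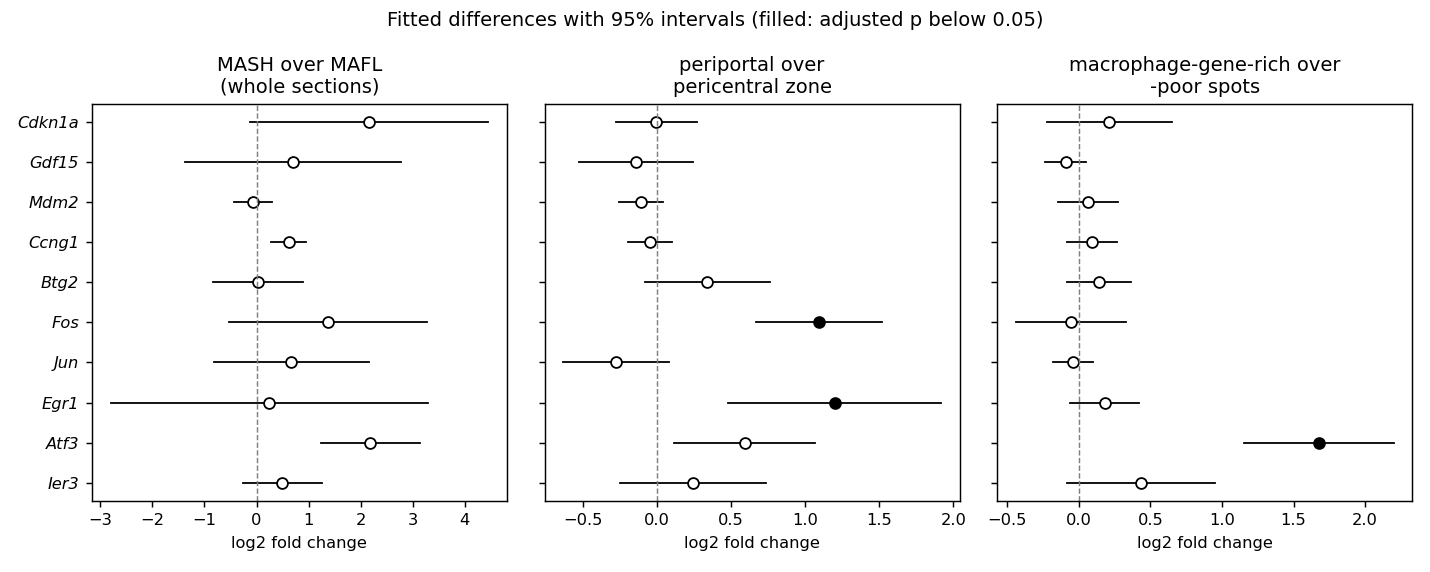
Fitted log2 fold changes with 95% intervals for the group, lobule axis and macrophage-spot comparisons (filled points: adjusted p below 0.05 in edgeR). The filled points are Fos and Egr1 along the axis and Atf3 in macrophage-gene-rich spots, and the widest group intervals belong to Egr1 and Cdkn1a.

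The share of spots with a UMI differed widely between the genes. Before thinning it went from 13 of 2036 spots for Atf3 in MAFL-1 to 1310 of 1862 for Jun in MASH-2. After thinning each spot to 5000 UMIs, Gdf15 was seen in 6.15% of spots in MAFL-1 (exact 95% interval 5.13 to 7.29) and in 21.2% in MAFL-2, 23.0% in MASH-1 and 22.8% in MASH-2. Fos was seen in 0.450% (0.206 to 0.852), 1.45%, 3.05% and 2.82% of spots in the same order, and Cdkn1a in 1.35%, 0.484%, 1.44% and 6.83%. Before thinning these shares were 18.03, 60.1, 69.6 and 64.1% for Gdf15, 1.03, 6.06, 12.04 and 11.3% for Fos and 3.44, 2.13, 7.46 and 25.1% for Cdkn1a. The order of the sections was that of the CPM for Fos and, with MASH-1 and MASH-2 nearly equal, for Gdf15, and for Cdkn1a only MASH-2 stood clear. These intervals cover counting error only. The greatest number of UMIs in 1 spot was 11, of Jun in MAFL-2. A single spot of MASH-1 held 8 UMIs of Atf3, 5.37% of that section's total. Within sections, Spearman correlations of the thinned counts over the 45 pairs were between -0.0552 and 0.0811. In counts this sparse, values near 0 cannot tell whether the members tracked each other from spot to spot. Nothing is therefore read from them.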

How the data were processed

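Visium libraries of fresh-frozen liver were turned by the authors into count tables with Space Ranger 1.2.2 on mm10, per the file headers and the submitters' processing notes. Each deposited count is the whole number of UMIs of 1 of 31253 features in 1 spot. Spots under 500 UMIs were dropped here, and counts were summed per section, lobule zone or spot class. Zones ranked spots by log2((Cyp2f2 + 1)/(Cyp2e1 + 1)) within each section, and 128 to 201 spots per section lay within 0.1 of a border. Both genes were left out of the tests by zone, and the 14 macrophage genes out of the test of macrophage classes.

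The main test was the robust quasi-likelihood test of edgeR 4.0.16 on these sums, after filterByExpr and TMM scaling, with Benjamini-Hochberg adjustment over all tested genes and a threshold of 0.05, in R 4.3.3 with limma 3.58.1, with DESeq2 1.42.0 as an alternative. Comparisons within sections had the section as a block. Intervals used the moderated degrees of freedom. The fits were tested on simulated data. Python 3.11.15, numpy 2.4.6, scipy 1.17.1, pandas 2.3.3 and matplotlib 3.10.9 did the rest. Taken over 11814 genes in MAFL and 12756 in MASH, chi-square per degree of freedom between sections was 67.7 and 116. Over these genes as a set, counting error was small beside the spread of replicates. This need not hold for single genes of few UMIs, such as Ier3, with 56 and 46 UMIs in the MAFL sections.

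The 10 members and the other lists were chosen with earlier results of these data known. Named genes were the 10 members, up to 4 genes of the smallest p from each other list (mean level 5 CPM or more), and the 5 genes most correlated with Cdkn1a, Gdf15 and Fos in log2(CPM + 1), of which those of Gdf15 are not reported here. Alternatives were other size factors, no filter, other zone scores and spot classes, and leaving out each section. Spot positions were not used here.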

Additional observations from a re-analysis of the deposited data

How the results depend on the processing

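Of 780 results of single genes under alternatives, 658 kept their direction and side of the threshold, 8 lost it, 33 gained it and 81, none of them called, changed sign. No call was reversed. Over whole sections the count of genes past the threshold was 62, and 627 in DESeq2, 1153 without a filter on low counts, 38 in macrophage-gene-poor and 177 in macrophage-gene-rich spots alone (both chosen after seeing the data), and 20 to 535 with 1 section left out. DESeq2 gave 1684 for the lobule axis (2892), 340 for the periportal zone (159), 246 for the middle (53), 277 for the pericentral zone (71), 419 for macrophage-gene-rich spots (1135) and 16 for their interaction with group (139). Leaving out 1 section gave 1968 to 2540 for the axis, 80 to 627 periportally, 19 to 368 in the middle, 27 to 1516 pericentrally, 7 to 445 for the zone interaction (66), 457 to 1328 for macrophage spots and 36 to 640 for their interaction. The cause of these shifts was not tested. Without the section block the axis gave 104, and neither Fos (adjusted p = 0.916) nor Egr1 (0.879) passed. A 12-gene zone score gave 107 pericentrally. The zone interaction gave 107 without a filter and 24 within depth bins.

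Same-numbered sections are not stated to be paired, and their deviations from the group means had r = -0.195. With the number as a replicate block the counts were 0 over whole sections (1900 at an unadjusted p below 0.05), 71 periportally, 19 in the middle and 55 pericentrally, and of the 10 genes only the periportal call of Atf3 was lost. Scaling by library totals alone moved the median of all genes by up to 0.14 on the log2 scale (pericentral zone) and gave 29 calls in the middle zone. It changed the split of higher and lower calls from 1419 and 1473 to 1021 and 1709 for the axis, from 757 and 378 to 1014 and 54 for macrophage spots, from 82 and 57 to 159 and 6 for their interaction, from 39 and 27 to 27 and 50 for the zone interaction, from 113 and 46 to 139 and 31 periportally, and from 43 and 28 to 41 and 17 pericentrally. Low counts limit Cdkn1a, Atf3, Fos and Ier3 in MAFL zones, where 1 to 55 UMIs stand behind a level. For Egr1 the zones of MAFL-1 held 23 to 29 UMIs.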
